A study of Mus musculus with 16 samples.

Results

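The light chain variable segments of splenic B-cells are described here by their usage, that is, the RPKM of a segment (reads per kilobase of exon, scaled to the mapped reads of the library) as a percentage of the summed Igkv and Iglv RPKM of its library. Members were taken by symbol: every row whose symbol starts with Igkv or Iglv and whose value was above 0 in at least 1 library. Of 107 such rows among 38355 genes, 105 qualified, 102 of the kappa locus in 19 families and 3 of the lambda locus, and Igkv2-95-2 and Igkv17-134 were at 0 throughout. RNA-Seq had been made from C57BL/6 wild-type (WT) mice and from Mir146a-/- (KO) mice, which lack the microRNA miR-146a. Their splenic B-cells were sorted as T1, T2, MZ or FO cells, with 2 biological replicates in each of 8 groups. Each of the 16 libraries came from spleens pooled from several mice, so that a replicate is a pool and not an animal, and ages are not in the labels used here. T1 cells were gated as CD23- AA4+ IgMhigh CD21-/low, T2 cells as CD23+ AA4+ IgMhigh CD21low, MZ cells as CD23- AA4- IgMhigh CD21high and FO cells as CD23+ AA4- IgMlow CD21int.

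A B-cell makes its light chain gene by joining a V segment to a J segment at the kappa locus (Igk, chromosome 6) or, less often in the mouse, at the lambda locus (Igl, chromosome 16), and as a rule 1 light chain is carried per cell. At Igk the V segments lie in both orientations. Those on the same strand as the Igkj segments join by deletion of the DNA in between, whereas those on the opposite strand join by inversion. Transitional cells (T1, then T2) are recent arrivals from the bone marrow that give rise to the recirculating FO cells and to the MZ cells, which answer blood-borne antigens without T cell help, and the receptor a cell carries is known to weigh in that choice. In a bulk library, fewer cells that carry a segment and less RNA of that segment per cell cannot be told apart.

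The segments that carry the findings are shown by the end of their germline coding sequence, where CDR3, the antigen-contacting loop at the joint, begins. Each run is the last 60 bases of the annotated V exon, 5′ to 3′ (GENCODE M21, GRCm38), and the capitals mark the codon of the conserved cysteine before CDR3. The lambda pair is shown because Iglv2 was highest in MZ cells.
Iglv1: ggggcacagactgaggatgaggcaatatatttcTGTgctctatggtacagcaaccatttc
Iglv2: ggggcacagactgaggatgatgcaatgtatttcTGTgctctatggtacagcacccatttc
The ends above lie at chr16:19085017-19085076 and chr16:19260401-19260460, both on the minus strand. Over the whole V exon, Iglv1 and Iglv2 were 97.0% identical, with 9 differences in an alignment of 305 bases, whereas Iglv1 and Iglv3 were 59.4% identical. Kappa segments described below as higher in MZ cells are shown next.
Igkv2-109: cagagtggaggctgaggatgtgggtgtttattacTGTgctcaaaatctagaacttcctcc
Igkv1-110: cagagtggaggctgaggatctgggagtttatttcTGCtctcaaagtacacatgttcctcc
Igkv8-24: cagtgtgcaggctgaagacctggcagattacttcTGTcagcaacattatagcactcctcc
They lie at chr6:68303099-68303158 (plus strand), chr6:68271208-68271267 (plus) and chr6:70216858-70216917 (minus). The next pair, of the Igkv6 family, was lower in MZ cells than in T2 cells.
Igkv6-14: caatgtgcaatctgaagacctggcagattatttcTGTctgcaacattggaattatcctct
Igkv6-25: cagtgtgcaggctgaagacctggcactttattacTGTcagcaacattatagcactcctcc
Their places are chr6:70434952-70435011 (minus) and chr6:70215898-70215957 (plus). Igkv6-25 and Igkv8-24 are neighbours on opposite strands, and the libraries do not mark strand. The segments that were higher in FO cells follow.
Igkv3-4: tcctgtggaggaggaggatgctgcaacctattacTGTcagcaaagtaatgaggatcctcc
Igkv3-12: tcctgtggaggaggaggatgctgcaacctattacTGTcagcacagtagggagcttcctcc
Igkv17-127: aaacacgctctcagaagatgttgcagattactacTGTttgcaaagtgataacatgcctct
Their places are chr6:70672318-70672377, chr6:70518790-70518849 and chr6:67861600-67861659, all on the plus strand. The last is the segment that was higher in KO T1 cells.
Igkv5-39: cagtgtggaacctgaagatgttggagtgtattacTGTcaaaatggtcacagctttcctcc
It lies at chr6:69900424-69900483 (minus) and was 91.7% identical to its nearest relative, Igkv5-45. Likeness matters here because only uniquely aligned reads of 100 bases with up to 2 mismatches were kept. Of 101 members with an annotated transcript, 45 shared at least 1 exact window of 100 bases with another V transcript, 72 did so within 2 mismatches, and in 34 more than 50% of the windows were shared within 2 mismatches. For Iglv1 the share of such windows was 55.1%, for Iglv2 60.3% and for Igkv5-39 3.2%. Levels of near-identical segments are therefore uncertain with respect to each other.

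Depth was given by the steps between values, since the values of 99.91% of the genes above 0 corresponded to whole reads within 0.01 reads. Where the annotated exon length did not give whole reads, the smallest length that did was taken. Of the 105 members, 19 fitted at the annotated length. The share of 99.91% is therefore no check of the lengths, and numbers of reads can be too low for genes with few reads. The totals that scaled the libraries ranged from 9003343 to 26386684 reads. Reads in light chain V segments numbered 24442 to 300563 per library, and each of the 12 most used segments had at least 224 reads in every library. Mir146, the targeted gene, had at most 1 read in any library, so that the genotype labels cannot be checked from these values. Beyond the gates, S1pr3, Cd1d1, Cd9, Dtx1 and Cr2, which mark MZ cells, were all 5 called higher in MZ than in T2 cells. Among the 3 tested genes that mark FO cells, Fcer2a and Klf2 were called lower in MZ than in T2 cells. Cd93, Vpreb3, Myb and Rag1, which mark transitional cells, were all 4 called lower from T1 to T2. Of these, Cr2, Fcer2a and Cd93 were gated on.

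The T1 libraries stood apart from all others, and they did so between replicates as well. The summed light chain V level was 15699 and 49461 RPKM in WT T1 replicates 1 and 2 and 23759 and 60947 RPKM in KO T1, against 7857 to 8201 in T2, 4766 to 5706 in MZ and 5545 to 6290 in FO. Igj, the J chain that antibody-secreting cells make, was 428 and 2799 RPKM in WT T1 and 1148 and 3876 RPKM in KO T1, and 21.2 to 38.5 in T2, 6.09 to 17.3 in MZ and 1.96 to 8.63 in FO. The 9 plasma cell markers summed to 654 to 4535 RPKM in T1, against 193 to 227 in FO, 202 to 249.5 in T2 and 489 to 553 in MZ. In T1 none of them was at 0 in all libraries, and 6 of the 9 (Igj, Tnfrsf17, Derl3, Prdm1, Sdc1 and Xbp1) were called lower from T1 to T2. The replicate 2 libraries of both genotypes were the highest in the light chain sum, in Igj and in the marker sum. The part of these transcripts in the T1 usage values was not tested, and T1 results are given beside those without T1 where they bear on another comparison.

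**Figure D1:**
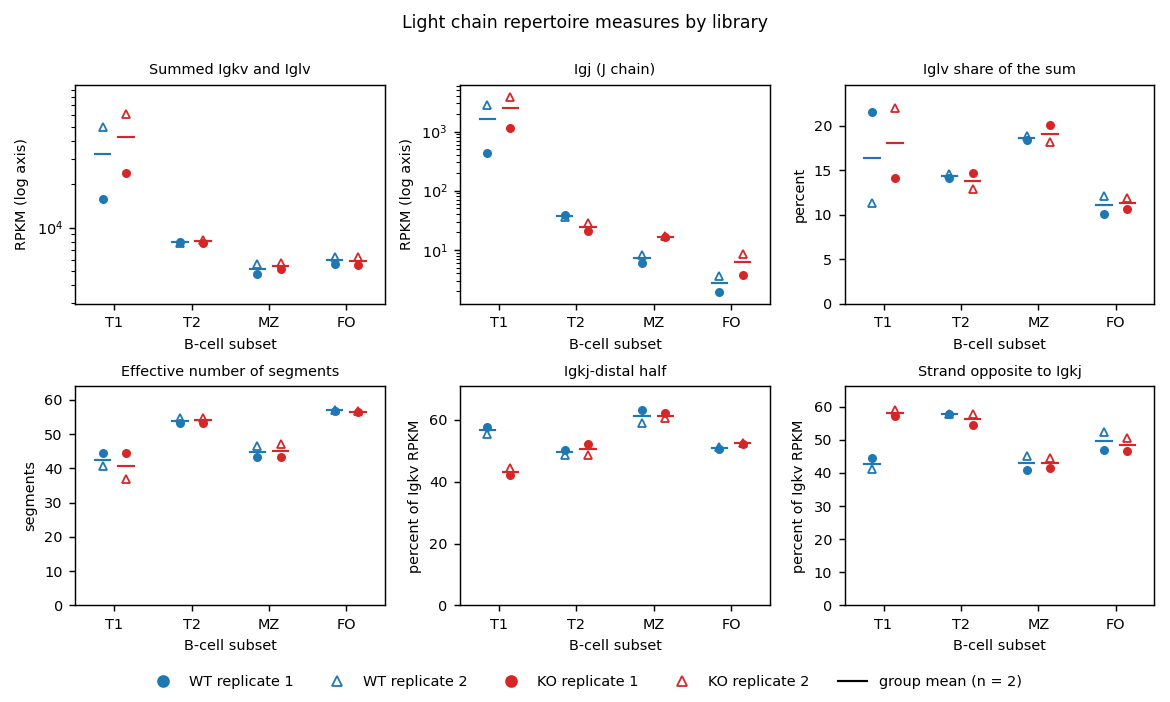
Light chain measures of the 16 libraries by B-cell subset (points, libraries, with WT in blue and KO in red; short lines, group means of 2). The first 2 panels are RPKM on a log axis, and the others give the Iglv share, the effective number of segments, and the shares from the 49 segments distal to Igkj and from the strand opposite to Igkj. The shares by position and strand are of the summed RPKM of the 98 Igkv segments with a position. MZ libraries lay apart from T2 and FO in the last 4 panels, with a lambda share of 18.2% to 20.1% against 10.1% to 12.1% in FO, and T1 libraries spread most.

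Usage was broad and unequal. Of the 105 members, 100 had a read in every library, 32 had a mean usage of at least 1%, and 23 had a mean under 0.1%. The 12 most used segments held 39.2% to 54.8% of the light chain V RPKM of a library, and these were Iglv1, Iglv3, Igkv1-117, Igkv1-135, Igkv1-110, Igkv19-93, Igkv6-15, Igkv5-39, Igkv10-96, Iglv2, Igkv14-111 and Igkv9-120. Their mean usage over the 16 libraries fell from 7.71% for Iglv1 to 2.36% for Igkv9-120. Among families, Igkv1 was the most used with 11 segments and a mean of 15.97%, followed by Igkv4 with 27 segments and 10.4%. The effective number of segments, the exponential of the Shannon entropy of usage, is the number of equally used segments that would give the same diversity. It was 56.4 to 57.1 in FO, 53.2 to 54.8 in T2, 43.3 to 47.03 in MZ and 36.8 to 44.5 in T1 libraries. Usage was thus most even in FO cells and less even in MZ cells, with no overlap among T2, MZ and FO libraries. The inverse Simpson index gave the same order of those 3 subsets (27.1 to 30.5 in MZ, 36.9 to 39.1 in T2 and 41.1 to 41.9 in FO). Among Igkv segments alone, the T2 range of 54.7 to 56.1 overlapped the FO range of 55.9 to 57.7, and MZ (44.4 to 48.9) stayed below both.

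Profiles of usage over the 105 segments were alike between replicates, with Pearson correlations of 0.942 to 0.988 in T2, MZ and FO and of 0.727 and 0.877 in T1. Between WT and KO libraries of the same subset they were 0.976 to 0.995 in MZ, 0.952 to 0.996 in FO, 0.964 to 0.983 in T2 and 0.563 to 0.850 in T1. Between MZ and FO libraries they were 0.750 to 0.885, below every value within T2, MZ or FO and overlapping those within T1. Segments share the library, so these values describe the profiles and are not tests.

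**Figure D2:**
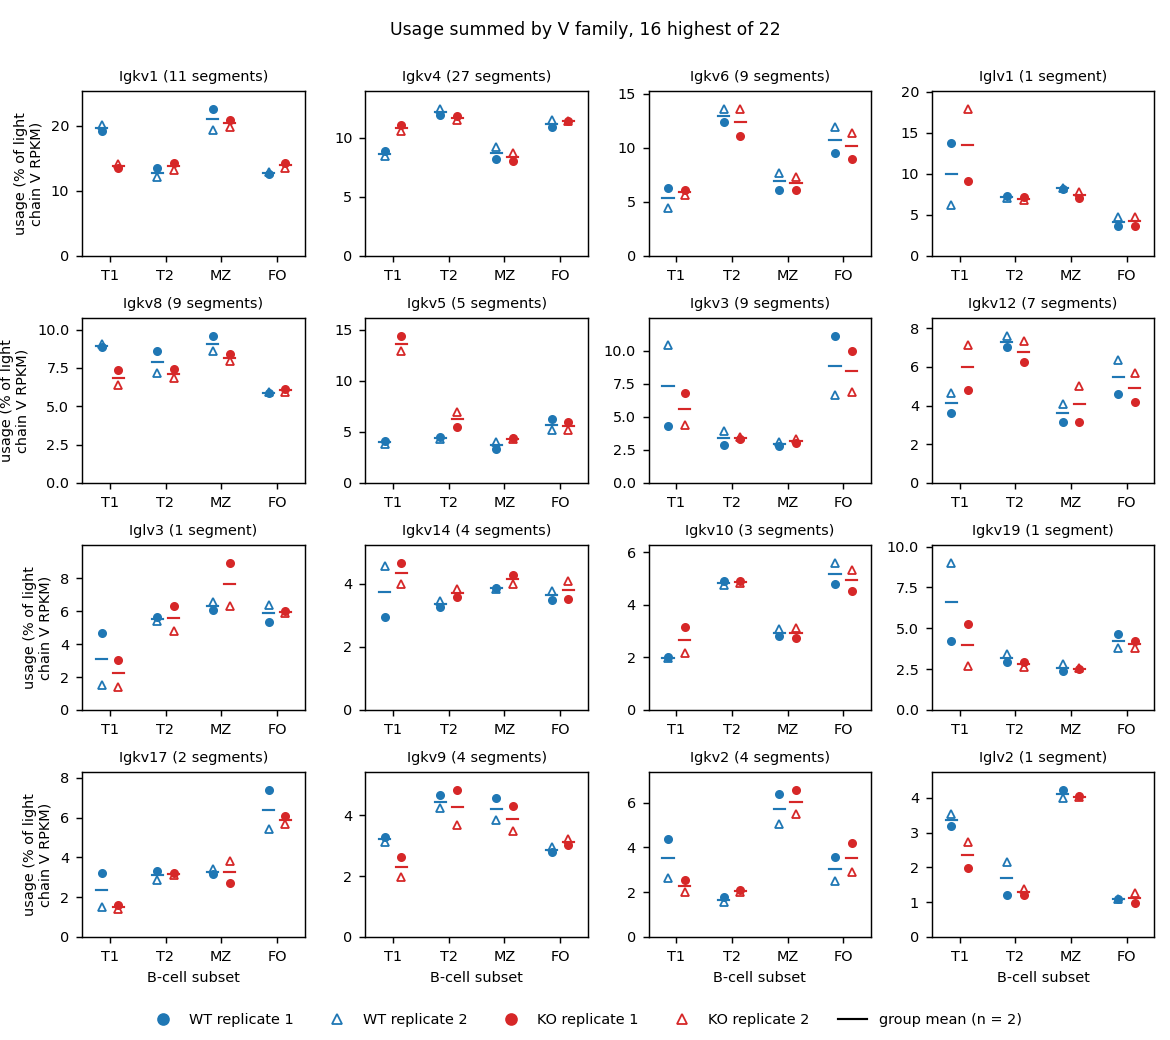
Usage summed by V family for the 16 highest of 22 families, in percent of the light chain V RPKM of each library (points, libraries; lines, group means of 2). Igkv1, Igkv2 and Iglv2 were higher in MZ than in T2 and FO, Igkv4 and Igkv6 were lower, and Igkv3 and Igkv17 were highest in FO among those 3 subsets.

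Lambda segments took a larger share of the light chain V RPKM in MZ cells. The Iglv share was 18.2% to 20.1% in MZ libraries, 12.95% to 14.7% in T2 and 10.1% to 12.1% in FO, without overlap, and 11.3% to 22% in T1. Igkc and Iglc2, the kappa constant gene and the only lambda constant gene used here, gave the same order of MZ, T2 and FO from other exons. Iglc2 is not the only lambda constant gene of the mouse, so its share is a part set beside the whole Iglv share. It made up 13.4% to 15.9% of the sum of Igkc and Iglc2 in MZ, 10.95% to 11.9% in T2 and 8.24% to 9.39% in FO. In T1 that share was 4.56% to 10.4%, below T2, whereas the Iglv share of T1 reached above it. The 3 lambda segments did not move alike. Iglv2 was 4.22% and 4.005% in WT and 4.05% and 4.02% in KO in MZ cells, 1.22% and 2.15% in WT and 1.196% and 1.38% in KO in T2 cells, and 1.08% and 1.09% in WT and 0.965% and 1.25% in KO in FO cells. No MZ library overlapped any T2 or FO library. The log2 difference of Iglv2 usage was 1.90 (SE 0.17, adjusted p = 9.0e-06) between MZ and FO and 1.497 (SE 0.17, adjusted p = 4.6e-05) from T2 to MZ. In each genotype on its own the T2 to MZ difference was 1.34 (SE 0.24, adjusted p = 0.00189) in WT and 1.65 (SE 0.24, adjusted p = 5.8e-04) in KO, and the WT call was lost without replicate 1 of WT T2 (log2 0.94, adjusted p = 0.0124). Iglv1 was 8.15% and 8.32% in WT and 7.096% and 7.83% in KO in MZ and 3.63% and 4.69% in WT and 3.702% and 4.72% in KO in FO cells. Its log2 difference of 0.92 (SE 0.26, adjusted p = 0.0164) did not pass the fold criterion of 1. From T2, where it was 6.77% to 7.26%, to MZ it differed by 0.15 (SE 0.26, adjusted p = 0.669). In T1 cells Iglv1 ranged more than in any other subset, 13.7% and 6.23% in WT and 9.12% and 17.9% in KO, up to 17.9% in 1 library. Iglv3 was 6.07% to 8.92% in MZ and 5.37% to 6.37% in FO libraries, ranges that overlapped, and the difference was 0.22 (SE 0.33, adjusted p = 0.639). It was lower in T1, at 1.38% to 4.66%, than in T2, at 4.81% to 6.33%, with a log2 difference of 1.23 (SE 0.33, adjusted p = 0.0186). That call was lost without replicate 2 of WT T1, replicate 2 of KO T1, or replicate 1 of KO T2 (log2 0.83 to 1.13, adjusted p = 0.0401 to 0.0605), and by RPKM as deposited Iglv3 fell from T1 to T2, since the summed level fell.

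From T2 to MZ, in both genotypes averaged, 21 of 103 segments tested were called, 20.4% against 10.7% of all genes tested (called: adjusted p under 0.05, log2 difference beyond 1 in size and mean over 1 in a compared group). Of them 6 rose (6.63% of all genes did) and 15 fell (4.09%). None of the 21 overlapped between the 4 MZ and the 4 T2 libraries, which adds no support, since they were called from the same libraries. The median log2 difference over the segments tested was -0.34, and over all genes tested it was 0.02. All 4 members of the Igkv2 family rose. Igkv2-109 was 3.29% and 2.899% in WT and 3.99% and 2.82% in KO in MZ cells and 0.746% and 0.575% in WT and 0.946% and 0.817% in KO in T2 cells, so that the lowest MZ library was well above the highest T2 library. Its log2 difference was 2.08 (SE 0.23, adjusted p = 4.3e-05), and the call held without any 1 library. Igkv2-112, Igkv2-116 and Igkv2-137 rose by 1.55 (SE 0.32), 1.37 (SE 0.35) and 1.15 (SE 0.15). Igkv2-137 was 1.66% to 2.11% in MZ and 0.754% to 0.968% in T2 libraries, and Igkv2-109 was 95.2%, 88.4% and 81.9% identical to Igkv2-116, Igkv2-137 and Igkv2-112. Summed, the family was 5.02% to 6.56% in MZ, 1.54% to 2.11% in T2 and 2.51% to 4.19% in FO. Igkv3-4 also rose, from 0.241% to 0.367% to 0.601% to 0.813% (1.28, SE 0.39, adjusted p = 0.0227), but the call was lost without replicate 1 of WT T2, replicate 1 of KO T2, replicate 1 of WT MZ, or replicate 1 or 2 of KO MZ (log2 1.13 to 1.29, adjusted p = 0.0524 to 0.0771). The Igkv1 family, which holds 3 of the 5 most used segments, was 19.4% to 22.5% in MZ, 12.1% to 14.3% in T2 and 12.6% to 14.3% in FO. Its member Igkv1-110 was 7.03% and 5.54% in WT and 6.36% and 5.49% in KO in MZ and 3.31% and 2.93% in WT and 3.43% and 3.35% in KO in T2 cells. In WT it was called from T2 to MZ, at 1.002 (SE 0.19, adjusted p = 0.00275), and the call was lost without replicate 2 of WT T2 or replicate 1 of WT MZ (log2 0.83 to 0.91, adjusted p = 0.0218 to 0.0349) and by RPKM. Averaged over the genotypes its log2 difference was 0.90 (SE 0.13, adjusted p = 3.2e-04), short of the fold criterion.

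The 15 segments that fell from T2 to MZ included 5 of the Igkv4 family, 4 of Igkv12 and 3 of Igkv6. Families were read from the symbol, and the identifier of 1 of the 4, Igkv12-47, points to Igkv13-85. Igkv6-14 was 0.274% and 0.347% in WT and 0.247% and 0.340% in KO in T2 and 0.0735% and 0.128% in WT and 0.0819% and 0.109% in KO in MZ cells, with a log2 difference of -1.61 (SE 0.31, adjusted p = 0.00177). Igkv6-23 differed by -1.28 (SE 0.14, adjusted p = 3.9e-05) and Igkv6-25 by -1.26 (SE 0.18, adjusted p = 2.5e-04). The family as a whole was 11.1% to 13.6% in T2, 6.07% to 7.71% in MZ and 9.002% to 11.9% in FO libraries. Igkv14-130 was 0.108% to 0.184% in T2 and 0.0342% to 0.0530% in MZ, a difference of -1.49 (SE 0.23, adjusted p = 4.4e-04). Igkv4-50, Igkv4-74 and Igkv12-46 differed by -1.27 (SE 0.15), -1.29 (SE 0.18) and -1.19 (SE 0.17). Those averaged calls held without any 1 library. Igkv12-47 and Igkv4-62 had larger averaged differences but were little used. Igkv12-47 was 0.07098% to 0.1504% in T2 and 0.0141% to 0.05597% in MZ, and its call (-1.85, SE 0.58, adjusted p = 0.0236) was lost without replicate 1 of WT T2, replicate 1 of KO T2, replicate 1 of WT MZ, or replicate 2 of KO MZ (log2 -1.72 to -1.49, adjusted p = 0.0744 to 0.0886). Igkv4-62 was 0.0649% to 0.108% in T2 and 0.00805% to 0.0393% in MZ, and its call (-1.79, SE 0.57, adjusted p = 0.0267) was lost without replicate 1 or 2 of WT T2, replicate 2 of KO T2, replicate 1 of WT MZ, or replicate 1 or 2 of KO MZ (log2 -1.85 to -1.32, adjusted p = 0.0535 to 0.107). By RPKM as deposited, where the fall of the summed level counts as well, 1 segment, Igkv2-109, was called higher and 35 lower (background 10.8%), and the 5 others that rose in usage were not called. Without replicate 1 of WT MZ the count by usage was 13.

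**Figure D3:**
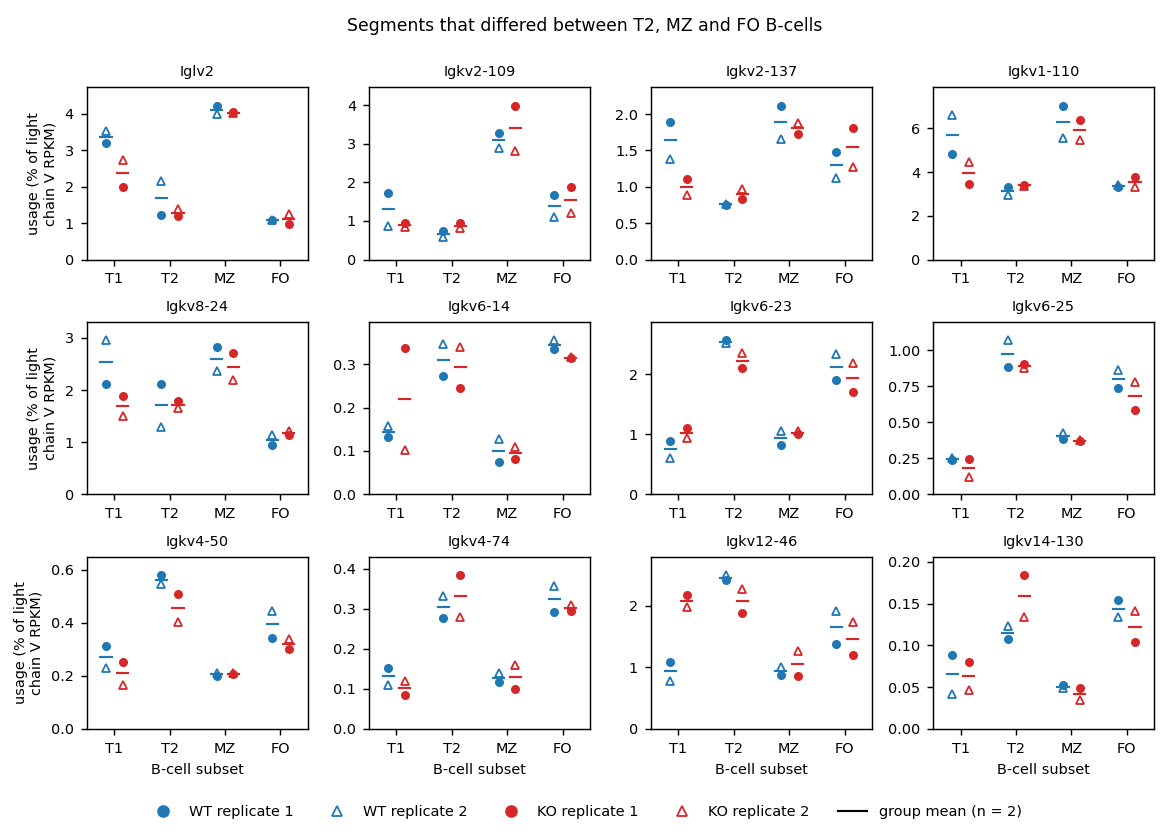
Usage of 12 segments by library, in percent of the light chain V RPKM (points, libraries; lines, group means of 2). Iglv2, Igkv2-109, Igkv2-137, Igkv1-110 and Igkv8-24 had higher means in MZ than in T2 and FO, with Igkv2-137 overlapping between MZ and FO, and the Igkv6, Igkv4, Igkv12 and Igkv14 segments were lower in MZ than in T2 without overlap, with Igkv2-109 at 2.82% to 3.99% in MZ and 0.575% to 0.946% in T2.

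Both genotypes made the change from T2 to MZ. In WT 18 segments were called (6 rose and 12 fell, against 6.49% and 4.06% of all genes tested, 10.6% in all), and in KO 16 were called (4 rose and 12 fell, against 5.95% and 3.44%, 9.39% in all). The differences rest on separate libraries, but the SEs come from 1 spread shared by all 8 groups, so the WT and KO calls are not independent. The 4 that rose in KO (Igkv2-109, Igkv2-112, Igkv2-137 and Iglv2) were 4 of the 6 that rose in WT, and 9 of the 12 that fell in WT were 9 of the 12 that fell in KO. In WT Igkv2-112 was not called without replicate 2 of WT T2 or replicate 1 of WT MZ (log2 0.88 to 1.102, adjusted p = 0.178 to 0.258). In KO it was not called without any 1 of its 4 libraries (log2 1.35 to 1.87, adjusted p = 0.0539 to 0.135), and Igkv2-137 was not called without replicate 1 of KO T2 or replicate 2 of KO MZ (log2 0.89 to 0.94, adjusted p = 0.0409 to 0.0537). Igkv2-109 rose by 2.23 (SE 0.33) in WT and by 1.93 (SE 0.33) in KO, and Igkv6-23 differed by -1.45 (SE 0.20) and -1.11 (SE 0.20). No segment was called for the difference between KO and WT in this change by limma, against 0.008% of all genes tested, and 1 of the 103 had an unadjusted p under 0.05, 0.971% against 1.67% of all genes. For Igkv2-109 that difference was -0.31 (SE 0.46) and for Iglv2 it was 0.30 (SE 0.34), so that differences of this order could not be resolved with 2 replicates. With 1 library left out, the counts went down to 9 in WT (without replicate 2 of WT T2 or replicate 1 of WT MZ) and to 10 in KO (without replicate 2 of KO T2 or replicate 1 of KO MZ). By RPKM as deposited 1 rose and 21 fell in WT (background 10.6%), and 1 rose and 22 fell in KO (background 9.44%).

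Position and orientation in the kappa locus moved with the subset. The 98 Igkv segments with a position in the annotation lie 18.4 to 3166.3 kb from Igkj1, 58 on the opposite strand and 40 on the same strand, and 4 others (Igkv19-93, Igkv4-56, Igkv12-47 and Igkv4-73), whose identifier and symbol point to different places, were given none. Here and below, the Igkv RPKM of which a share by position or strand is given is the sum over those 98 segments. The 49 segments beyond 1333.7 kb, called distal here, held 59.03% to 63.2% of it in MZ, 48.5% to 52.3% in T2 and 50.6% to 52.4% in FO libraries. The 24 farthest segments, from 2284.6 kb on and 3 of them on the opposite strand, held 47.2% to 52.5% in MZ, 31.7% to 35.8% in T2 and 34.2% to 37.9% in FO. The 25 segments between 605.5 and 1344.6 kb, all on the opposite strand, had 15.9% to 19.3% in MZ, 24.5% to 26.8% in T2 and 21.9% to 23.9% in FO. Segments on the opposite strand, which join by inversion, held 40.9% to 45.2% of the Igkv RPKM in MZ, 54.6% to 57.8% in T2 and 46.5% to 52.4% in FO. The order of the subsets thus differed between the measures, since FO was close to T2 in the distal share and between T2 and MZ in the share of the opposite strand. Of the 5 called kappa segments that rose from T2 to MZ, 4 were distal and 0 on the opposite strand, and of the 14 with a position that fell, 4 were distal and 10 on the opposite strand. Among all 96 tested with a position, 48 were distal and 56 on the opposite strand. Without the 5 most used segments, the distal share was 46.6% to 49.6% in MZ, 39.9% to 43.3% in T2 and 43.01% to 44.2% in FO, and the share of the opposite strand was 55.7% to 58.9% in MZ, which then overlapped the FO range of 54.2% to 60.98%. Strand varied with distance, since the opposite strand held 12 of the 25 segments up to 584.1 kb, all 25 from 605.5 to 1344.6 kb, 18 of the 24 from 1417.7 to 2203.1 kb and 3 of the 24 beyond.

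**Figure D4:**
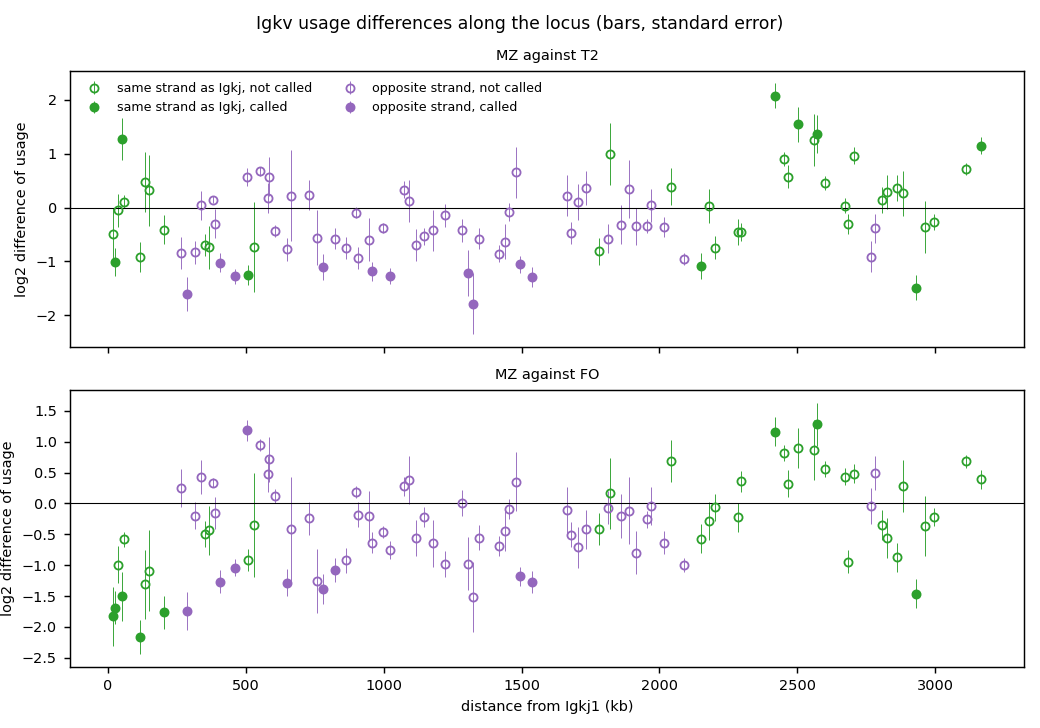
Log2 difference of usage of each Igkv segment against its distance from Igkj1 in kb, for MZ against T2 above and MZ against FO below (points, segments; bars, SE; green, same strand as Igkj; purple, opposite strand; filled, called). The kappa segments called higher in MZ than in T2 are green and 4 of the 5 lie beyond 1333.7 kb, and 10 of the 14 called lower are purple.

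MZ and FO cells, the end points of maturation, differed in 18 of 103 segments, 17.5% against 9.19% of all genes tested, 4 higher in MZ (5.8% of all genes were) and 14 lower (3.38%). This comparison shares the MZ libraries with that above. The median log2 difference over the segments was -0.35 against 0.04 over all genes. Higher in MZ were Iglv2, Igkv2-109 (1.16, SE 0.23, adjusted p = 0.00256), Igkv2-116 (1.29, SE 0.35, adjusted p = 0.0135) and Igkv8-24. Igkv8-24 was 2.83% and 2.36% in WT and 2.71% and 2.19% in KO in MZ and 0.941% and 1.13% in WT and 1.14% and 1.21% in KO in FO cells, and differed by 1.19 (SE 0.17, adjusted p = 2.7e-04). That call was lost by RPKM as deposited (log2 1.03, adjusted p = 0.0614). Its neighbour Igkv6-25 was 0.369% to 0.427% in MZ and 0.584% to 0.861% in FO. Igkv2-116 is annotated as a pseudogene and its call was lost without replicate 1 of KO FO (log2 1.14, adjusted p = 0.0552). By RPKM as deposited 3 segments were called higher and 19 lower (background 9.2%). Lower in MZ by usage were 5 segments of the Igkv3 family, Igkv3-7 (-2.16, SE 0.28), Igkv3-1 (-1.83, SE 0.48), Igkv3-12 (-1.76, SE 0.27), Igkv3-2 (-1.69, SE 0.26) and Igkv3-4 (-1.51, SE 0.39). Summed, the family was 2.79% to 3.35% in MZ and 6.63% to 11.1% in FO libraries. Igkv3-7 was 0.190% and 0.1797% in WT and 0.143% and 0.267% in KO in MZ and 1.23% and 0.662% in WT and 0.982% and 0.687% in KO in FO cells. Igkv6-14 was lower as well, at 0.0735% to 0.128% against 0.314% to 0.355% (-1.75, SE 0.31, adjusted p = 0.00119). The call for Igkv3-4 was lost without replicate 1 of WT FO or replicate 1 of KO FO (log2 -1.28 to -1.19, adjusted p = 0.0506 to 0.0509). Igkv5-39 (-1.08, SE 0.20) fell short of the fold criterion without replicate 2 of KO MZ, replicate 1 of WT FO, or replicate 1 of KO FO (log2 -0.99 to -0.90, adjusted p = 0.00659 to 0.00859), and Igkv6-23 (-1.04, SE 0.14) did so without replicate 1 of WT MZ, replicate 2 of WT FO, or replicate 2 of KO FO (log2 -0.97 to -0.95, adjusted p = 0.00128 to 0.00132).

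From T2 to FO few segments were called, 5 of 103 or 4.85% against 1.16% of all genes tested. Of them 4 rose (background 0.432%) and 1 fell (0.728%), and the medians were 0.03 over segments and 0.00 over all genes. Those that rose were 3 of the Igkv3 family and Igkv17-127. Igkv3-4 was 0.265% and 0.359% in WT and 0.241% and 0.367% in KO in T2 and 3.16% and 1.32% in WT and 2.98% and 1.59% in KO in FO cells, a log2 difference of 2.78 (SE 0.39, adjusted p = 0.00986). Within FO, replicate 1 was the higher in both genotypes. Igkv3-12 was 0.413% and 0.494% in WT and 0.471% and 0.546% in KO in T2 and 1.67% and 0.929% in WT and 1.48% and 0.981% in KO in FO (1.35, SE 0.27, adjusted p = 0.0213). Igkv3-7 differed by 1.25 (SE 0.28, adjusted p = 0.0262) and Igkv17-127 by 1.24 (SE 0.24, adjusted p = 0.0178). Igkv3-7 and Igkv3-12 were 96.8% identical, and Igkv17-127 was 97.99% identical to Igkv17-121. Windows shared within 2 mismatches made up 69.6% for Igkv3-12, 55.0% for Igkv3-7 and 55.0% for Igkv17-127, against 12.6% for Igkv3-4. Levels within these like pairs are therefore uncertain with respect to each other. The Igkv17 family was 5.41% to 7.38% in FO and 2.88% to 3.31% in T2. Igkv6-13 fell by 1.09 on the log2 scale, from 0.651% to 1.21% to 0.313% to 0.548%. These calls depended on single libraries. None was left without replicate 1 of KO FO or of KO T2, and 1 was left without replicate 1 of WT FO or of WT T2. By RPKM as deposited 1 rose and 2 fell (background 1.14%). Igkv3-4 was lost without replicate 1 of KO T2 or replicate 1 of KO FO (log2 2.56 to 2.63, adjusted p = 0.0503 to 0.0631). For Igkv3-12 the call was lost without replicate 1 of WT T2, replicate 1 of KO T2, replicate 1 of WT FO, or replicate 1 of KO FO (log2 1.14 to 1.29, adjusted p = 0.0749 to 0.11), and for Igkv3-7 and Igkv17-127 without any of the same 4 libraries, with adjusted p up to 0.126 and 0.0939. The Igkv6-13 call was lost without any of 13 libraries (adjusted p = 0.0531 to 0.189). Without the 4 T1 libraries in the fit, 9 segments were called. Myeloid markers, 8 genes summed, were 72.99 to 126 RPKM in T2 and 7.54 to 37.1 in FO, and 5 of the 8 were called lower. T cell markers, 7 genes summed, were 12.5 to 27.05 RPKM in T2 and 27.1 to 29.6 in FO. The part of either in these values was not tested.

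From T1 to T2, 31 of 103 segments were called, 30.1% against 5.18% of all genes tested, 26 higher (background 2.48%) and 5 lower (2.7%), with a median log2 difference of 0.52 over segments and 0.08 over all genes. The spread used is shared by all 8 groups, and T1 replicates were the least alike, so the count can be too high. The 26 that rose included 10 of the Igkv4 and 5 of the Igkv6 family. Igkv6-25 was 0.237% and 0.255% in WT and 0.242% and 0.1205% in KO in T1 and 0.887% and 1.07% in WT and 0.907% and 0.878% in KO in T2 cells, and differed by 2.17 (SE 0.18, adjusted p = 2.9e-05). The Igkv6 family was 4.46% to 6.29% in T1 and 11.1% to 13.6% in T2. Igkv4-81, Igkv13-84 and Igkv6-13 rose by 2.01, 1.93 and 1.87 (SE 0.32, 0.26 and 0.30). Igkv4-62 rose by 1.95 (SE 0.57), but that call was lost without replicate 2 of WT T1, replicate 2 of KO T1, replicate 1 or 2 of WT T2, or replicate 2 of KO T2 (log2 1.40 to 2.01, adjusted p = 0.0646 to 0.0916). Igkv10-96, among the 12 most used, went from 1.32% to 2.05% to 3.504% to 3.79% (1.22, SE 0.11, adjusted p = 4.9e-05). Of the 5 that were lower in T2, Igkv1-122 was 0.389% to 0.733% in T1 and 0.203% to 0.237% in T2 (-1.09, SE 0.16, adjusted p = 6.3e-04), and its call was lost without replicate 1 of WT T1 (log2 -0.90, adjusted p = 0.00103). These are differences of share while the summed level fell by 2.03 on the log2 scale. By RPKM as deposited 0 segments were called higher and 62 lower (background 5.43%). The estimates of 9 named segments that rose in usage were then lower in T2 than in T1. Among them were Igkv10-96 at -0.80 (adjusted p = 0.107) and Igkv13-84 at -0.087 (adjusted p = 0.894), neither resolved. The plasma cell and J chain values given for the T1 libraries move with this comparison. Myeloid markers were 12.5 to 100.1 RPKM in T1.

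Replicates of T1 were also the least alike for single segments. Over 53 segments with a mean usage of at least 0.5%, the median ratio of the higher to the lower replicate was 1.498 in WT T1 and 1.438 in KO T1, and 1.13 to 1.21 in the 6 other groups. Igkv3-10 was 0.568% and 8.39% in the WT T1 replicates, a ratio of 14.8, and 0.852% and 0.294% in KO T1. Igkv12-89 was 0.271% and 1.26% in KO MZ, and Igkv4-57-1 was 0.395% and 1.62% in KO T1. Whether this reflects 1 mouse of a pool or the whole pool cannot be told apart.

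Between KO and WT, 1 of 103 segments was called in T1 cells, against 0.04% of all genes tested, and 31 of the 103 had an unadjusted p under 0.05, 30.1% against 3.67% of all genes. These p-values rest on a spread shared by all 8 groups, and T1 replicates were the least alike, so the share of 30.1% can be too high. The segment called was Igkv5-39, at 1.36% and 1.66% in WT and 10.9% and 9.65% in KO. The log2 difference was 2.77 (SE 0.28, adjusted p = 0.00644), and it stayed called without any 1 library. Igkv5-39 was 1.17% and 1.05% in WT and 2.201% and 3.60% in KO in T2, 0.905% and 1.05% in WT and 1.61% and 1.27% in KO in MZ and 3.198% and 1.94% in WT and 2.94% and 2.13% in KO in FO cells. In T2 and MZ the KO libraries were also the higher without overlap, but the differences of 1.34 (SE 0.28, adjusted p = 0.433) in T2 and 0.56 (SE 0.28, adjusted p = 1) in MZ were not called. With 2 libraries against 2 such a split says little. In MZ the KO libraries were the lower without overlap for Iglv1 (-0.14, SE 0.36) and Igkv4-55 (-0.26, SE 0.41). In FO the genotypes overlapped for Igkv5-39, at 0.01 (SE 0.28, adjusted p = 1). Across the 4 subsets the difference was 1.17 (SE 0.14, adjusted p = 0.00596), the only segment called of 103, against 0.08% of all genes tested. Both calls depended on the setting. By RPKM as deposited the T1 difference was 3.22 (SE 0.55, adjusted p = 0.207) and that across subsets 1.30 (SE 0.28, adjusted p = 0.169). With the 4 T1 libraries fitted alone the T1 difference was 2.77 (SE 0.25, adjusted p = 1), and without T1 libraries the average over T2, MZ and FO was 0.63 (SE 0.17, adjusted p = 0.603). Plasma cell markers summed to 654 and 3420 RPKM in WT T1 and to 1441 and 4535 in KO T1, so that the genotypes overlapped, and their part in the difference was not tested.

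Igkv4-55 was 1.01% and 0.3097% in WT and 2.38% and 1.55% in KO in T1 cells, without overlap, and differed by 1.77 (SE 0.41, adjusted p = 0.785) in usage and by 2.23 (SE 0.25, adjusted p = 0.0121) by RPKM as deposited, the scale on which it alone was called (background 0.04%). Without WT T1 replicate 1 it was called by usage too, at 2.62 (SE 0.25, adjusted p = 0.00445), as was Igkv5-45 (log2 1.91), while Igkv3-10 was called lower in KO (log2 -4.06), against the 8.39% of the WT library that remained. With Igkv5-39 these were 4 segments. In such a fit a group of 1 library is taken to vary like the other groups. Leaving out replicate 1 or replicate 2 of KO T1 gave a count of 2, with Igkv4-80 and Igkv4-59 added. In MZ cells Igkv4-55 was 0.553% to 0.745% over both genotypes. No segment was called between KO and WT by limma in T2 (background 0.048%, 4 segments at an unadjusted p under 0.05 against 3.41% of all genes), in MZ (0.064%, 0 segments against 1.64%) or in FO (0.032%, 0 segments against 0.927%). Without WT T2 replicate 1, Igkv4-86 was called in T2 (log2 -2.08, adjusted p = 0.0104). The median SE of a segment in these comparisons was 0.36, so that differences well under 1 on the log2 scale could not be resolved. For the segments that set MZ cells apart, the KO minus WT difference in MZ was -0.03 (SE 0.24) for Iglv2, 0.12 (SE 0.33) for Igkv2-109 and -0.04 (SE 0.44) for Igkv6-14.

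In T1 the genotypes also differed along the locus. The distal segments held 57.7% and 55.4% of Igkv RPKM in WT T1 and 42.1% and 44.4% in KO T1, and the opposite strand 44.5% and 41.2% in WT and 57.3% and 59.03% in KO. Igkv5-39 is not a distal segment and lies on the opposite strand. Without it the distal segments held 58.8% and 56.5% in WT and 48.7% and 50.9% in KO, and the opposite strand 43.4% and 39.95% and 50.6% and 53.01%. The genotypes did not overlap in either form.

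Of the 37 other genes of light chain formation tested, Polm and Vpreb3 were called from T2 to MZ (10.7% of all genes tested were). Vpreb3 was called between MZ and FO (9.19%), and none of the 37 from T2 to FO (1.16%), by limma. At an unadjusted p under 0.05 were 16, 15 and 8 of them in those comparisons, where 50.4%, 45.9% and 31.2% of all genes tested were. Of 7 light chain constant and joining genes tested (Igkc, Iglc2 and Igkj1 to Igkj5), none was called from T2 to MZ, from T2 to FO or between MZ and FO, by limma, with 0, 1 and 0 of the 7 at an unadjusted p under 0.05, and Igkc was called lower from T1 to T2 (-1.89, SE 0.39, adjusted p = 0.00532). Of 10 tested genes of recombination and end joining, Rag1, which cuts at the segments, was called lower from T1 to T2 (-2.61, SE 0.24, adjusted p = 5.1e-05), with 2.53 to 5.798 RPKM in T1, 0.134 to 0.302 in T2 and at most 0.008003 in MZ. Polm, a polymerase that fills the light chain joints, was called lower from T1 to T2 (-1.14, SE 0.15, adjusted p = 4.0e-04) and from T2 to MZ (-1.08, SE 0.15, adjusted p = 1.9e-04). Vpreb3, a gene of the surrogate light chain group, was 126 to 143 RPKM in T2, 8.56 to 19.1 in MZ and 66.9 to 81.6 in FO, and was called lower from T2 to MZ (-3.37, SE 0.21, adjusted p = 7.2e-07) and lower in MZ than in FO (-2.55, SE 0.21, adjusted p = 5.1e-06), while Vpreb2 was at 0 in every library. Among 6 genes of hypermutation, none was called from T2 to MZ by limma (3 of 6 at an unadjusted p under 0.05, a share like that of all genes). Among 13 transcription factors of the light chain loci, Spib was called lower from T1 to T2 (-1.13, SE 0.14, adjusted p = 2.8e-04) and none was called from T2 to MZ by limma (6 of 13 at an unadjusted p under 0.05, likewise), where Foxo1 and Irf8 differed by -0.73 (SE 0.12, adjusted p = 7.9e-04) and -0.69 (SE 0.10, adjusted p = 2.5e-04), within the fold criterion. None of the 37 was called between KO and WT in any subset or across the 4 subsets by limma. Those at an unadjusted p under 0.05 numbered 0 in T1 and 0 in T2 cells (3.67% and 3.41% of all genes were), and 1 in MZ and 1 in FO cells (1.64% and 0.927%). Across the 4 subsets they numbered 4, 3 of them genes of hypermutation, where 8.01% of all genes tested were. Among markers of other cells, 3 of 9 plasma cell markers (Derl3, Mzb1 and Prdm1) were called higher from T2 to MZ and Sdc1 and Fkbp11 lower, and of 6 B1 cell markers Plscr1 was called higher and Spn lower. The 8 myeloid markers summed to 72.99 to 126 RPKM in T2 and 21.04 to 61.5 in MZ, without overlap, S100a8 was called lower and none higher, and their median log2 difference was -1.34. Their part in the T2 to MZ values was not tested. Erythroid markers summed to at most 2.40 RPKM in any library.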

How the data were processed

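RNA-Seq had been made from 16 libraries of sorted splenic B-cells (TruSeq RNA kit, which does not mark strand, single-end reads). The deposited values were RPKM per gene, made by the authors with Perl scripts from reads aligned by TopHat to mm10 (GRCm38) with up to 2 mismatches and kept when unique. Versions of TopHat, and of DESeq and edgeR, which the authors ran on counts not used here, were not given in the sources used here. Usage was the percentage of a library's summed Igkv and Iglv RPKM. For tests, usage times the mean of that sum over libraries (14173 RPKM) replaced the RPKM of the segments, and log2(value + 0.5) was fitted for all 12507 genes with a group mean above 1 in limma 3.58.1 (R 4.3.3, 8 groups, variance trend), with Benjamini-Hochberg adjustment over all of them in each of 12 comparisons. A log2 difference is on that scale and understates the change of low segments. A call needed an adjusted p under 0.05, a log2 difference over 1 and a mean above 1 in a compared group (no fold criterion for the difference between genotypes). Igkv1-131 and Igkv1-35 were too low to be tested. Each group held 2 libraries, and p-values measure the spread between pools, taken as 1 estimate per gene shared by all 8 groups. That is not the spread of the T1 pools, whose replicates were the least alike, so p-values of T1 comparisons can be too small.

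Annotation came from GENCODE M21, by identifier for 99 members and by symbol for 2, and 4 conflicted. Python 3.11.15 with pandas 2.3.3 and numpy 2.4.6 made the tables, and the fit was tested on simulated data. Named segments were the 12 most used, every Iglv row, the 5 largest rises and 5 largest falls without overlap in comparisons of subsets, those called between KO and WT, Igkv4-55, and the 3 largest replicate ratios, and of these the text gives the ones its results turn on, with a few others (Igkv2-116, Igkv3-1 and Igkv3-2 among them) added after their values were seen. The members, lists and rules were chosen with earlier results of these data known. Sums over segments are given without a p. Alternatives were pseudocounts of 0.1 and 1, no filter, RPKM, another denominator, quantile normalization, a replicate block, only the groups compared, no fold criterion and each library left out, and, chosen after seeing the data, leaving out T1 libraries or Igkv5-39, a replicate block within each genotype and placing 4 segments by symbol.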

Additional observations from a re-analysis of the deposited data

Results flagged for a closer look

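In 3 measures the KO minus WT difference had opposite signs in 2 subsets, in every library of each. The difference between the subsets was not tested in any of them. With 2 libraries against 2, a split without overlap arises easily by chance, and its share over all measures and segments was not counted. The share of Igkv RPKM from the 49 distal segments was lower in KO than in WT in T1 (KO minus WT, -13.3) and 1.39 points higher in FO. The share of the opposite strand was 15.3 points higher in KO in T1 and lower in T2 (-1.64). Igkv4-55 usage was 1.31 points higher in KO in T1 and lower in MZ (-0.116).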

How the results depend on the processing

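Of 124 counts of called segments under other settings, 112 stayed within 1.5 times the count reported. The others were, by RPKM as deposited, 62 (T1 to T2), 36 (T2 to MZ), 3 (T2 to FO) and 0 (KO against WT across subsets); with no fold criterion, 51 (T1 to T2), 44 (T2 to MZ), 13 (T2 to FO) and 42 (MZ against FO); with no filter on low values, 3 (T2 to FO); without the T1 libraries, 9 (T2 to FO) and 0 (KO against WT over the 3 other subsets); and with only the libraries compared, 0 (KO against WT in T1). With 1 library left out the counts were 25 to 41 (T1 to T2), 13 to 22 (T2 to MZ), 9 to 21 (the same in WT), 10 to 18 (in KO), 0 to 6 (T2 to FO), 18 to 24 (MZ against FO), 1 to 4 (KO against WT in T1) and 0 to 1 (in T2). By RPKM the estimates of 9 named segments turned from higher to lower from T1 to T2: Igkv10-96 (-0.80), Igkv12-98 (-0.62), Igkv13-84 (-0.087), Igkv14-130 (-0.87), Igkv4-50 (-0.91), Igkv4-74 (-0.56), Igkv6-13 (-0.14), Igkv6-23 (-0.57) and Iglv3 (-0.80), since the summed level fell. By limma the adjusted p was 0.00575 for Igkv14-130, 0.0220 for Igkv4-50 and 0.00184 for Iglv3. For the others it was 0.107 to 0.894, so their direction by RPKM was not resolved. Without the 5 most used segments the log2 difference of the summed level was -0.78 (T2 to MZ) and -0.40 (MZ against FO), that of the distal share was 3.36 (T1 to T2), 7.15 (T2 to MZ) and 4.93 points (MZ against FO), and that of the opposite strand 4.34, -9.62 and -0.198 points. The share of Iglc2 in the sum of Igkc and Iglc2 differed by 4.93 (T1 to T2), 2.81 (T2 to MZ) and 5.49 points (MZ against FO). With Igkv alone the effective number differed by 1.25 (T2 to FO) and -9.65 (MZ against FO). Without Igkv5-39 the distal share differed by -2.52 and the opposite strand by 9.14 points from T1 to T2, and with 4 segments placed by symbol the latter by 4.74. The cause of these shifts was not tested. Deviations of same-numbered libraries, over all genes, correlated above 0.1 in 6 of 6 pairs of groups within KO (0.19 to 0.442), in 4 of 6 within WT (0.0759 to 0.451) and in 2 of 16 between the genotypes. Over the segments alone they were above 0.1 in 3 of 6 pairs within KO (-0.141 to 0.310) and 5 of 6 within WT (-0.06 to 0.223). Between the genotypes 8 of 16 were (-0.257 to 0.529), so the segments did not set pairs within a genotype apart. The labels do not say that a number marks shared spleens, so the pairing within a genotype is a hint from the values of all genes only. With a replicate block 32 segments were called from T1 to T2, 22 from T2 to MZ, 5 from T2 to FO and 18 between MZ and FO. With a replicate block within each genotype, added after seeing the data, these were 32, 23, 7 and 18, with 21 (WT) and 16 (KO) from T2 to MZ, and no call of a named segment was lost.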
